A study of Mus musculus with 35 samples.

Results

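Clade B serpins of the mouse Serpinb9 cluster and Ceacam9 were examined, 9 genes chosen by symbol: Serpinb9, Serpinb9b, Serpinb9e, Serpinb9f, Serpinb9g, Serpinb6a, Serpinb6b, Serpinb1a and Ceacam9. All 9 were among the 17948 genes of the day 3 RNA-seq table. The tables of the Dnmt1 experiment (18091 genes) and of the Tet3-CD experiment (17705 genes) held the 8 serpins, and Ceacam9 was analysed on day 3 alone. The genes had been chosen because some of them were almost silent in Tet3 m/m cells while others beside them were not, so their differences between genotypes are given as a description, without a test.

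All cells were derived from V6.5 mouse embryonic stem cells (ESCs), a male line of mixed 129 and C57BL/6 background, and were differentiated to neuroectoderm (NE) by withdrawing LIF and adding retinoic acid at 1 uM, for 72 h per the labels. By the study's methods the cells of the Tet3-CD experiment were transfected on the second day of differentiation and collected a pair of days afterwards, later than those of the other experiments, and the cells of the Dnmt1 experiment were transfected as ESCs and selected with blasticidin before collection. Tet3+/+ cells are wild type. Tet3 m/m cells carry substitutions at the iron-binding residues of TET3, a dioxygenase that oxidises 5-methylcytosine in DNA, and make a protein without catalytic activity, while Tet3-/- cells lack the protein through an edited deletion. The lines are CRISPR-edited clones, so that a genotype here is a few clones. The day 3 experiment had 3 Tet3+/+, 3 Tet3 m/m and 2 Tet3-/- libraries from untransfected cells. The Dnmt1 experiment had 2 libraries of each genotype transfected with an empty vector and 2 with a Dnmt1 vector, the maintenance DNA methyltransferase. The Tet3-CD experiment had 1 library of each genotype with an empty vector and 1 with the catalytic domain of TET3, and it therefore has no replicates. Values are normalised read counts, that is reads per gene divided by a size factor of the library, and errors are the SD over libraries.

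Serpins of clade B are intracellular proteins that trap a target protease by presenting it with a bait loop, and the cleaved serpin then holds the enzyme covalently. Serpinb9 inhibits granzyme B, the killing protease of cytotoxic lymphocytes, and protects cells from their own or from incoming granzyme. In the mouse the gene has been copied several times in a cluster on chromosome 13, where Serpinb1a, Serpinb6a and Serpinb6b also lie, and several of the copies are known from placenta. Ceacam9, on chromosome 7, encodes a member of the carcinoembryonic antigen family that is made by trophoblast, next to relatives that include the pregnancy-specific glycoproteins.

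The copies of Serpinb9 differ in how alike their promoters are. The 250 bases upstream of the start of transcription are shown for the 3 copies that were almost silent in Tet3 m/m cells, Serpinb9e (chr13:33249358-33249607), Serpinb9f (chr13:33323827-33324076) and Serpinb9g (chr13:33484540-33484789), for the 2 copies that were not, Serpinb9 (chr13:33004291-33004540) and Serpinb9b (chr13:33027164-33027413), and for Ceacam9 (chr7:16721679-16721928). All are from RefSeq on GRCm38.p6 and lie on the plus strand. CpG dinucleotides, the sites at which DNA methylation occurs, are in capitals.

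Serpinb9e: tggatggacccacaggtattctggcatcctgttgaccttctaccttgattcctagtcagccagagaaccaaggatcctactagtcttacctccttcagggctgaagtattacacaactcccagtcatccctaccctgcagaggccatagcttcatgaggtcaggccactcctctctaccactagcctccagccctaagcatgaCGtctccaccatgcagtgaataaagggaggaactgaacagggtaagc
Serpinb9f: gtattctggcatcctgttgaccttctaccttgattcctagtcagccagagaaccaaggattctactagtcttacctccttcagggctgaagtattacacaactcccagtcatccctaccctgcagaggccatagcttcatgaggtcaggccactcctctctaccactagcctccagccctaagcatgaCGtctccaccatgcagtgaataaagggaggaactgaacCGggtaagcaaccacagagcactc
Serpinb9g: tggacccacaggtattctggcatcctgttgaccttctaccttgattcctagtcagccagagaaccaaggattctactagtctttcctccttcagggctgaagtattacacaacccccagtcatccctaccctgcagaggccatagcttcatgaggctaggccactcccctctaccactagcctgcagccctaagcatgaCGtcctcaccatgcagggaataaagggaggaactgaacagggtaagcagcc
Serpinb9: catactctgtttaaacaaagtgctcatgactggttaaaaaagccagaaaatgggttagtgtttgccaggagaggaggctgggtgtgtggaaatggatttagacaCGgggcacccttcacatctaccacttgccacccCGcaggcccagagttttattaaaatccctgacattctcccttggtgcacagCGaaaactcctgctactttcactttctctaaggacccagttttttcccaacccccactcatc
Serpinb9b: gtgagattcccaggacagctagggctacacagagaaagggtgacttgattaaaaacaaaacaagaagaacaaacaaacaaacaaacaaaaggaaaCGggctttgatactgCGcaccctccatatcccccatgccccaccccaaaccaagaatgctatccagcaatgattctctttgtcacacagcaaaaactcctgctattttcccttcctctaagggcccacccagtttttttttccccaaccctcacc
Ceacam9: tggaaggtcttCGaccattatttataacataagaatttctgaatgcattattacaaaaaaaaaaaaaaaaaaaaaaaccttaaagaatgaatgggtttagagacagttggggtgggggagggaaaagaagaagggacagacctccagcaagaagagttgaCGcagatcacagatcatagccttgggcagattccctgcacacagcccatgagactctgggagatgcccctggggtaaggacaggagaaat

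Over the aligned 250 bases Serpinb9e and Serpinb9g were 92.9% identical, Serpinb9e and Serpinb9f 87.9%, and Serpinb9f and Serpinb9g 87.7%. A stretch of 60 bases was the same in all 3. Serpinb9 and Serpinb9b were 58.2% identical to each other, shared no identical run longer than 13 bases, and were 46.9% and 48.2% identical to Serpinb9e. The promoters were poor in CpG, with 1 in Serpinb9e, 2 in Serpinb9f, 1 in Serpinb9g, 3 in Serpinb9, 2 in Serpinb9b and 2 in Ceacam9. The median over 32851 mouse promoters of this length was 6, and 29% of them held 2 or fewer. The single CpG of Serpinb9e (base -47) and of Serpinb9g (base -51) and the CpG of Serpinb9f at base -62 stood within the letters TGACGTC. These letters were searched after the sequences had been seen, on both strands, in all promoters. TGACGTC occurred in 2.78% and the shorter TGACGT, which it contains, in 6.47%. Of the genes in the cluster, TGACGT was found upstream of Serpinb9c (in 1 of its 2 windows), Serpinb9d, Serpinb9e, Serpinb9f and Serpinb9g, between 65 and 42 bases before the start. It was not found in the windows of Serpinb9, Serpinb9b, Serpinb6a, Serpinb6b, Serpinb6c, Serpinb9h or Ceacam9. No promoter of Serpinb1a was analysed here.

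The copies are alike in their transcripts too. Serpinb9e was 95.0% identical to Serpinb9f and 94.5% to Serpinb9g, and Serpinb9f was 96.9% identical to Serpinb9g, against 65.3% between Serpinb9 and Serpinb9b. Of all 50-base windows of the transcript, 28.4% for Serpinb9e, 52.8% for Serpinb9f and 44.5% for Serpinb9g also occurred in another transcript of the cluster, and for Serpinb9 and Serpinb9b this was 0.38% and 0.406%. The division of reads among Serpinb9d, Serpinb9e, Serpinb9f and Serpinb9g is therefore uncertain.

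Each library held between 31155842 and 50845950 reads over all genes. Normalised counts of Tet3, which still come from outside the edited bases, were 4576 to 5020 for Tet3+/+, 1945 to 2666 for Tet3 m/m and 1796 to 2329 for Tet3-/- cells on day 3. With the empty vector of the Dnmt1 experiment they were 2957 to 3075, 964 to 1125 and 2520 to 2571 in the same order. The Tet3-/- mean was thus 0.844 times that of Tet3+/+ cells there, against 0.436 times on day 3. Dnmt1 rose with its vector in each genotype, by 0.64, 0.90 and 1.06 on the log2 scale in Tet3+/+, Tet3 m/m and Tet3-/- cells. Of 6 lymphoid and myeloid markers none was in the day 3 or Tet3-CD tables, and Cd3e alone, at 0 to 32.9, was in that of the Dnmt1 experiment. The 8 neuroectoderm markers were present in every group, with 5 lower in Tet3 m/m cells on day 3 (limma, adjusted p under 0.05 and over 1.5-fold, a call that 10.2% of all genes passed). Libraries also differed in the summed level of the Y-linked genes Ddx3y, Uty and Eif2s3y, which were chosen after their values were seen. Day 3 Tet3+/+ libraries were at 816 to 1398, Tet3 m/m at 4.10, 373 and 243, and Tet3-/- at 366 and 5720. In the Tet3-CD experiment both Tet3 m/m libraries were near 0, at 14.9 (empty vector) and 5.64 (Tet3-CD), although the parent line is male. The clones of 1 genotype are thus not alike, and a clone and its genotype cannot be told apart.

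In Tet3+/+ NE cells on day 3 the members covered a wide range of levels. Per kilobase of the longest coding transcript, the scale on which genes can be compared, Serpinb6a stood first with a mean of 1069 normalised reads. Serpinb9e (184) and Serpinb9b (175) followed, and then Serpinb9 (74.3), Serpinb9g (62.2), Serpinb9f (56.3), Ceacam9 (49.8), Serpinb6b (30.1) and Serpinb1a (6.596). The ranges over the 3 libraries overlapped between Serpinb9e and Serpinb9b and between neighbours in the order from Serpinb9 to Ceacam9, so the order within these 2 sets is not fixed.

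The neighbouring copies Serpinb9e, Serpinb9f and Serpinb9g were close to silent in Tet3 m/m NE cells on day 3. Serpinb9e read 358, 254 and 451 normalised counts in the 3 Tet3+/+ libraries, 0, 0 and 4.07 in the 3 Tet3 m/m libraries, and 298 and 318 in the 2 Tet3-/- libraries. All Tet3 m/m libraries together held 4 Serpinb9e reads against 1099 in the Tet3+/+ libraries, and the means of 1.36 ± 2.35 (n = 3) and 354 ± 98.4 (n = 3) differed 261-fold. No Tet3 m/m library came near any other library, and the Tet3-/- libraries lay inside the Tet3+/+ range.

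Serpinb9f read 104, 91.5 and 128 in the Tet3+/+ libraries, 6.15, 5.06 and 4.07 with the m/m genotype, and 127 and 74.0 where TET3 was absent. Its mean was 21.2-fold lower in Tet3 m/m than in Tet3+/+ cells, from 335 reads to 16. Serpinb9g read 98.3, 111 and 150 for Tet3+/+, 6.15, 3.37 and 2.04 for Tet3 m/m and 119 and 95.6 for Tet3-/- libraries, a 31.1-fold lower mean in Tet3 m/m cells. For both genes every Tet3 m/m library lay below every other library, and the Tet3-/- libraries were close to wild-type levels, with means 0.934 and 0.894 times those of Tet3+/+ cells. Some reads remained in each Tet3 m/m library for these 2 genes, whereas Serpinb9e had none in 2 of 3.

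Serpinb9 itself, the granzyme B inhibitor, did not share this pattern. It read 299, 230 and 245 for Tet3+/+, 395, 258 and 104 for Tet3 m/m and 464 and 667 for Tet3-/- libraries. The Tet3 m/m mean of 252 ± 146 (n = 3) was 0.979 times the Tet3+/+ mean of 258 ± 36.2 (n = 3), with the libraries of both groups intermixed. Both Tet3-/- libraries lay above all Tet3+/+ libraries, with a 2.19-fold higher mean.

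Serpinb9b, an inhibitor of granzyme M, read 551, 510 and 649 for Tet3+/+, 552, 271 and 88.6 for Tet3 m/m and 863 and 1093 for Tet3-/- libraries. Its mean was 1.88-fold lower in Tet3 m/m cells, but one Tet3 m/m library stood among the Tet3+/+ libraries, and the SD of 233 about a mean of 304 covers most of the difference. Among Tet3-/- libraries the mean was 1.72-fold higher and the groups did not overlap. In the third Tet3 m/m library both Serpinb9 and Serpinb9b were lowest, while Serpinb9e was at its highest for that genotype.

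The serpins at the ends of the cluster were not lower in Tet3 m/m cells beyond the spread of their libraries. Serpinb6a, an inhibitor of trypsin-like proteases and cathepsin G, read between 1720 and 1823 for Tet3+/+, 1865 and 2119 for Tet3 m/m and 1924 and 2007 for Tet3-/- libraries, with means 1.12 and 1.11 times that of Tet3+/+ cells. Serpinb6b, which inhibits granzyme A, read 77.1, 59.8 and 61.3 for Tet3+/+, 57.4, 75.9 and 14.3 for Tet3 m/m and 36.1 and 105 for Tet3-/- libraries, and the 3 groups overlapped. Serpinb1a, an inhibitor of neutrophil elastase, was low throughout, at 19.3, 18.7 and 0 in Tet3+/+ libraries against 25.3 to 43.0 with the m/m genotype and 21.2 and 47.8 for Tet3-/- libraries. Its lowest library in either edited genotype lay above the highest Tet3+/+ library, with means 2.60 and 2.73 times higher.

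Ceacam9, the member on chromosome 7, was listed at 0 in all 3 Tet3 m/m libraries. It read 69.4, 87.8 and 51.4 in Tet3+/+ libraries, 218 reads in all. With a floor of 3 reads over the group, the level in Tet3 m/m cells was at least 72.9-fold lower. The recovered counts, 72, 94 and 52 in Tet3+/+ and 4 and 86 in Tet3-/- libraries, were all even. Both mates of a read pair may thus have been counted, and the bound would then be lower. The 2 Tet3-/- libraries differed from each other, at 4.24 and 97.9, so that one lay far below and the other above the Tet3+/+ range. The Tet3-/- library with the low Ceacam9 level was also the one with the low summed level of the Y-linked genes (366 against 5720), and Serpinb9e, Serpinb9f and Serpinb9g did not differ between the 2 libraries in this way. The part of clone make-up in the Ceacam9 difference was not tested.

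Counted over the 9 members, 4 (Serpinb9e, Serpinb9f, Serpinb9g and Ceacam9) had every Tet3 m/m library below every Tet3+/+ library, where this held for 18.3% of all genes tested, and 2 (Serpinb6a and Serpinb1a) had every library above, against 18.4% of all genes. For Tet3-/- libraries none lay below (20.4% of all genes) and 4, Serpinb9, Serpinb9b, Serpinb6a and Serpinb1a, lay above (20.8%). These counts follow from how the genes were chosen.

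**Figure D1:**
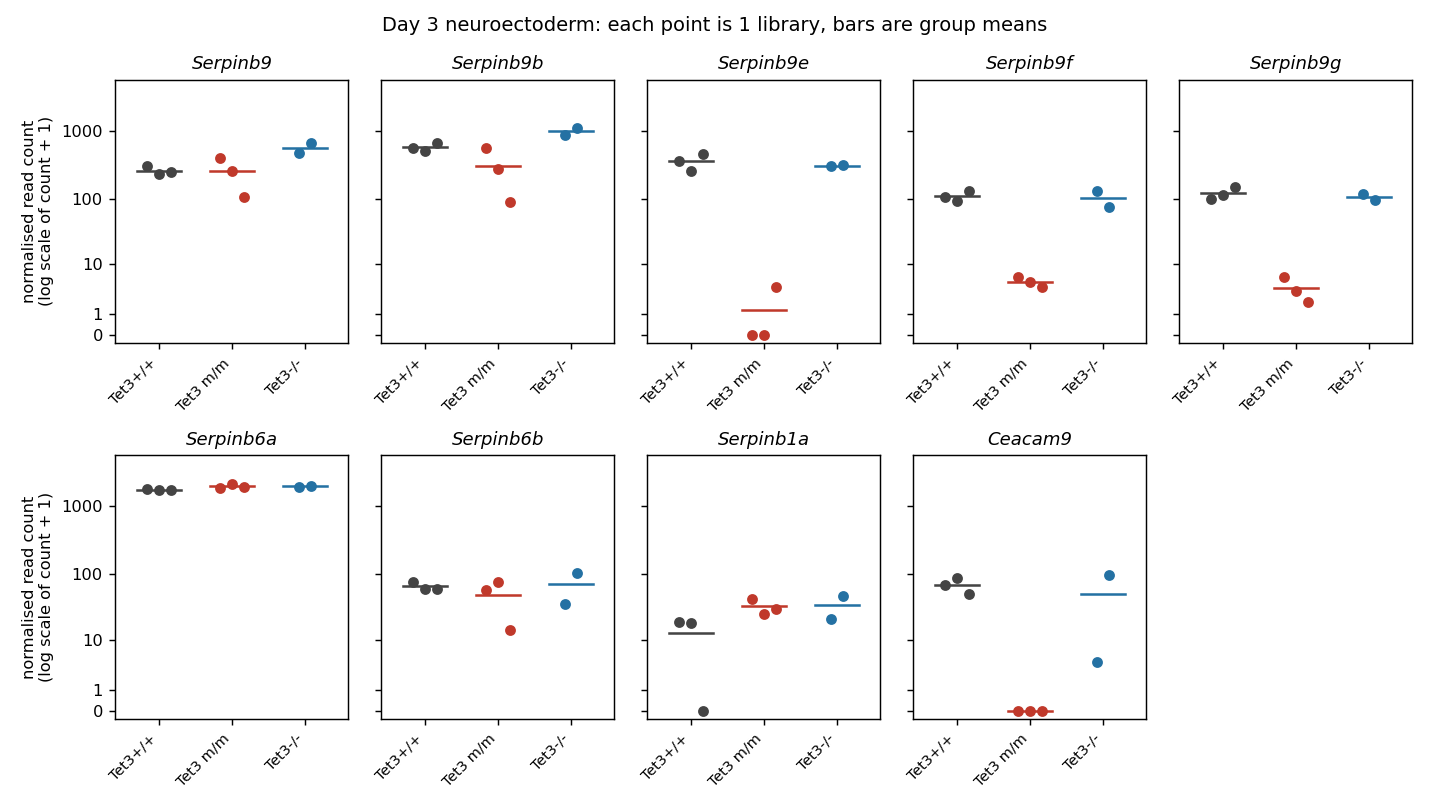
Normalised read counts of the 9 genes on day 3, on a log scale of count + 1, with 1 point per library and a bar at each group mean for Tet3+/+ (grey, n = 3), Tet3 m/m (red, n = 3) and Tet3-/- (blue, n = 2). Serpinb9e, Serpinb9f, Serpinb9g and Ceacam9 lie at 0 to 6.15 in Tet3 m/m libraries, whereas Serpinb6a stays between 1720 and 2119 in all 8 libraries.

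The low levels formed a block along chromosome 13. In the order of the annotation, and of the genes measured, Serpinb1a, Serpinb6b, Serpinb9 and Serpinb9b are followed by Serpinb9c, Serpinb9d, Serpinb9e, Serpinb9f and Serpinb9g, and then by Serpinb6c and Serpinb6a. Serpinb9c and Serpinb9d, measured but not among the members, were also lower in Tet3 m/m cells on day 3. Serpinb9c had a mean of 3.29 against 37.7 in Tet3+/+ cells (log2 difference of -2.97, adjusted p = 0.0154 by limma). Serpinb9d had a mean of 4.52 against 56.4 (-3.73, adjusted p = 0.0152 by limma). Of the 50-base windows of the Serpinb9d transcript 30.8% also occurred in another transcript of the cluster, against 0% for Serpinb9c. Serpinb9d is thus not separate from the copies chosen for near silence, and its p-value gives no independent evidence of a wider block. Serpinb6c, on the other side of the block, rose from 24.6 ± 5.06 to 94.8 ± 30.7 (log2 difference of 1.87, SE 0.39, adjusted p = 0.0109 by limma, n = 3 each). The 5 adjacent measured copies from Serpinb9c to Serpinb9g were thus all low, between Serpinb9b, whose libraries overlapped with wild type, and Serpinb6c, which rose. Serpinb7 and Serpinb8, which lie elsewhere in the genome, were at 12.8 and 48.1 in Tet3+/+ and 12.8 and 52.8 in Tet3 m/m cells. Of these 5 further Serpinb genes 1 rose, 2 fell and 2 did not pass the test in Tet3 m/m cells, where 10.2% of all genes passed. Their median log2 difference was -0.14 where that of all genes was 0.00081. In Tet3-/- cells, where 0.642% of all genes passed by limma, none of them passed by limma, edgeR or DESeq2 and none had an unadjusted p under 0.05.

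The genes around the cluster were examined as 10 expressed protein-coding genes on each side, chosen by position. On day 3, 1 of 20 passed the test in Tet3 m/m cells: Foxq1, a forkhead transcription factor, rose by 1.56 on the log2 scale (SE 0.25, adjusted p = 0.00298 by limma), where 10.2% of all genes passed in either direction. In Tet3-/- cells 0 of 20 passed by limma and by edgeR and 2 by DESeq2, 6 had an unadjusted p under 0.05 by limma, and 0.642% of all genes passed. The median differences of the 20 genes were -0.02 and 0.02. The 20 genes around Ceacam9 gave 0 calls in both genotypes by limma, edgeR and DESeq2, with 1 and 4 at an unadjusted p under 0.05 by limma and medians of -0.04 and -0.02.

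**Figure D2:**
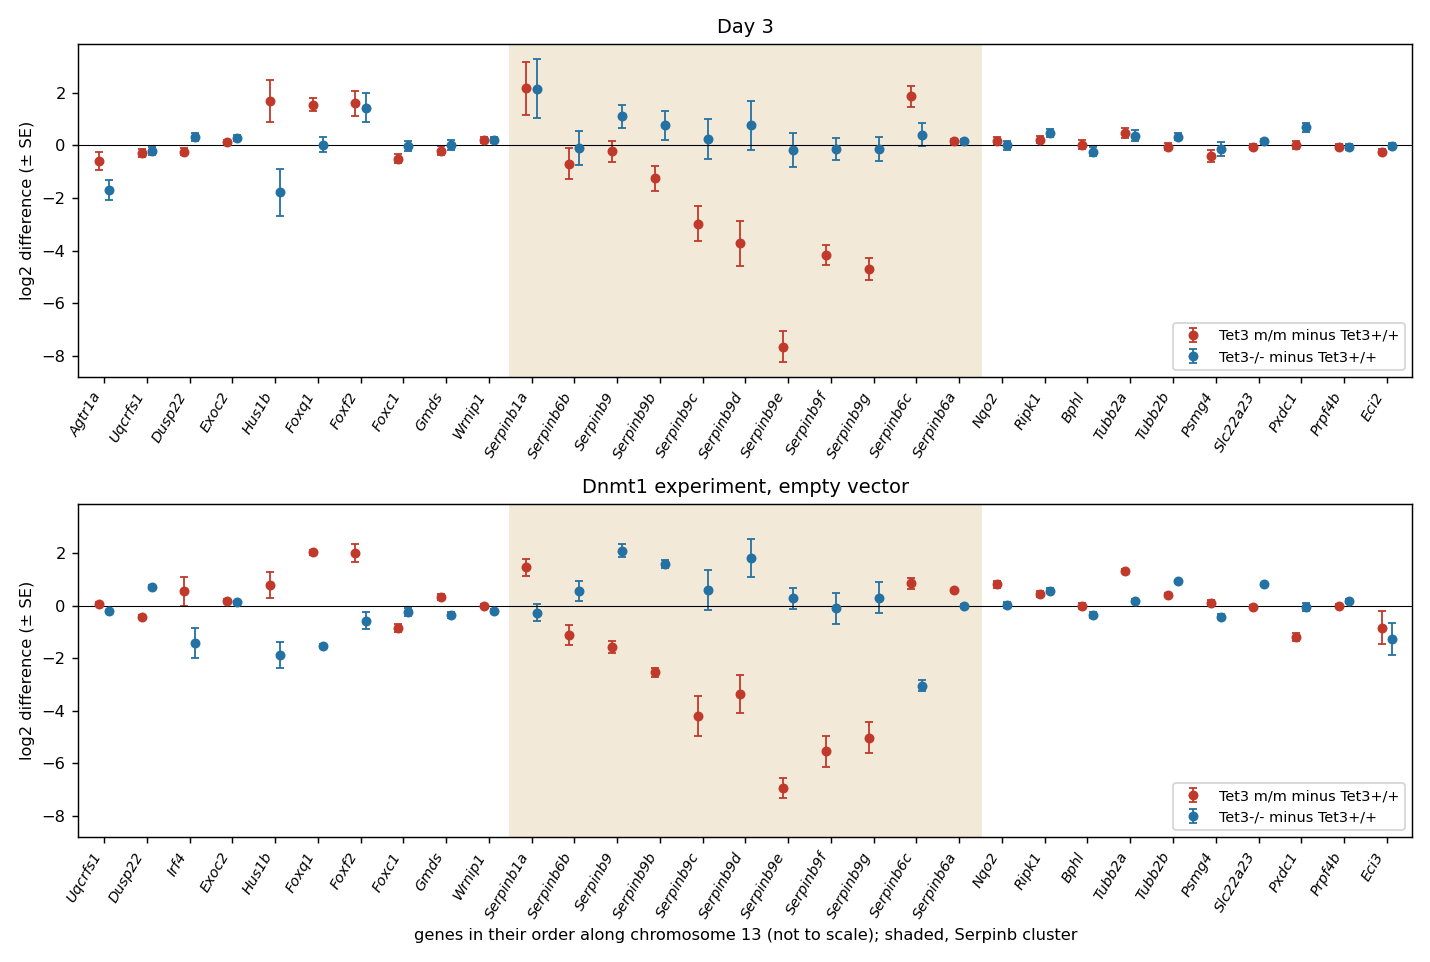
Log2 difference from Tet3+/+ (± SE of the limma fit) of the measured genes in their order along the region of chromosome 13, with the Serpinb cluster shaded and Tet3 m/m in red and Tet3-/- in blue, for day 3 and for the empty vector of the Dnmt1 experiment. The genes from Serpinb9c to Serpinb9g drop in Tet3 m/m cells in both panels, and Serpinb6c beside them does not.

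The same block was low in the second set of Tet3 m/m cultures. In the Dnmt1 experiment Serpinb9e read 116 and 128 in Tet3+/+ cells with the empty vector and 162 and 133 in Tet3-/- cells, and it was listed at 0 in both Tet3 m/m libraries, at least 75.5-fold lower. Serpinb9f read 38.5 and 53.3 in Tet3+/+, 60.1 and 29.6 in Tet3-/- and 0 in both Tet3 m/m libraries, at least 28.5-fold lower. Serpinb9g read 23.7 and 41.7 in Tet3+/+, 34.1 and 44.4 in Tet3-/- and again 0 in both Tet3 m/m libraries, at least 20.3-fold lower. Serpinb9c and Serpinb9d were at 0 there too, from 9.88 and 30.1 and from 17.8 and 4.64 in the Tet3+/+ libraries. Across the 4 Tet3 m/m libraries of the experiment 11 of 18091 genes were at 0 throughout, and Serpinb9c, Serpinb9d, Serpinb9e, Serpinb9f and Serpinb9g made up 5 of them. This count follows in part from how the genes were chosen, for near silence in Tet3 m/m cells. Because Serpinb9d, Serpinb9e, Serpinb9f and Serpinb9g share stretches of transcript, they are not separate observations.

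In this experiment the neighbours before the block were lower as well. Serpinb9 read 138 and 104 for Tet3+/+, 40.2 and 39.1 for Tet3 m/m and 508 and 523 for Tet3-/- cells with the empty vector, 3.06-fold lower and 4.25-fold higher than wild type. Serpinb9b read 242 and 224 for Tet3+/+, 34.7 and 44.3 for Tet3 m/m and 749 and 651 for Tet3-/- cells, 5.90-fold lower and 3.01-fold higher. Serpinb6b read 29.6 and 48.7 for Tet3+/+, 18.3 and 15.6 for Tet3 m/m and 61.7 and 50.8 for Tet3-/- cells. For these 3 genes the genotypes did not overlap, and their order was Tet3 m/m, Tet3+/+, Tet3-/-.

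The ends of the cluster went the other way in Tet3 m/m cells. Serpinb6a read 2755 and 3049 there against 1919 and 1960 in Tet3+/+ cells, a 1.5-fold higher mean, and 1919 and 1959 in Tet3-/- cells. Serpinb1a read 133 and 125 in Tet3 m/m against 46.4 in both Tet3+/+ libraries and 39.0 and 38.1 in Tet3-/- cells, 2.77-fold higher in Tet3 m/m cells. All 8 serpins therefore had Tet3 m/m libraries wholly below (6) or wholly above (2) the Tet3+/+ libraries, as did 36.1% and 36.3% of all genes. Of the same 8 serpins in Tet3-/- cells 4 (Serpinb9, Serpinb9b, Serpinb9e and Serpinb6b) were wholly above and 1, Serpinb1a, wholly below, against 38.8% and 38.3% of all genes.

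Of the 5 further Serpinb genes in the Dnmt1 experiment, 1 rose and 3 fell in Tet3 m/m cells with the empty vector, with a median of -3.36 where that of all genes was 0.0068. Serpinb6c rose from 214 ± 15.2 to 387 ± 45.1 (0.85, adjusted p = 0.00202 by limma), and Serpinb9c, Serpinb9d and Serpinb7 fell. Serpinb6c fell in Tet3-/- cells to 25.0 ± 2.49 (a log2 difference of -3.05), the opposite of its change in Tet3 m/m cells, and Serpinb8 and Serpinb9d rose there by 3.37 and 1.82. Around the cluster, 4 of 20 flanking genes rose and 2 fell in Tet3 m/m cells, where 21.2% of all genes passed the test. The forkhead genes Foxq1 and Foxf2 rose by 2.04 and 2.01, Tubb2a, a tubulin, and Nqo2, a quinone reductase, rose by 1.31 and 0.81, and Foxc1 and Pxdc1 fell by 0.85 and 1.20. Among the same genes in Tet3-/- cells 3 rose (Dusp22, Tubb2b and Slc22a23) and 3 fell (Irf4, Hus1b and Foxq1), where 24.9% of all genes passed. Foxq1 fell there by 1.53. Around Ceacam9, 1 of 20 rose and 3 fell in Tet3 m/m cells, and 4 rose in Tet3-/- cells, among them Meis3, a homeobox gene that fell by 1.07 in the former and rose by 0.70 in the latter.

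The effect of the Dnmt1 vector was tested within each genotype. The genes were chosen for differences between genotypes, but with earlier results of these data known. This test is therefore not independent of the choice. Serpinb9b was the only member that passed it, and only in Tet3-/- cells. It read 749 and 651 with the empty vector and 1056 and 1278 with Dnmt1, a 1.67-fold higher mean (log2 difference of 0.73, SE 0.16, adjusted p = 0.00431 by limma). Over all genes 3.53% passed in this genotype. Without the second empty-vector library or the second Dnmt1 library of Tet3-/- cells the difference was 0.63 or 0.60 and no longer passed (adjusted p = 0.0805 and 0.0956 by limma). Markers of other cell types moved in the same contrast: 6 of 10 pluripotency markers rose (median log2 difference of 0.60, against 0.0096 for all genes), with sums of 7926 to 8412 for the empty vector and 10965 to 11071 for Dnmt1, and 2 of 7 fibroblast feeder markers fell. Their part in the Serpinb9b difference was not tested. Nor was the Serpinb9b difference shown to be particular to Tet3-/- cells, since the difference from the effect in Tet3+/+ cells was 0.45 with an SE of 0.23 (adjusted p = 0.265 by limma).

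In the same cells Serpinb6a had a log2 difference of 0.20 (SE 0.06, adjusted p = 0.0447 by limma), which lay under the 1.5-fold threshold, with 1919 and 1959 for the empty vector and 2103 and 2353 for Dnmt1. Serpinb9 read 595 and 608 with Dnmt1 against 508 and 523 without, which did not pass (adjusted p = 0.622 by limma). Serpinb1a read 40.2 and 82.1 against 39.0 and 38.1, and without its first Dnmt1 library the difference was 1.07 and passed (adjusted p = 0.0268 by limma).

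In Tet3+/+ cells none of the 8 serpins passed the test by limma, edgeR or DESeq2, and none had an unadjusted p under 0.05, where 1.17% of all genes passed. Serpinb9e read 116 and 128 with the empty vector and 162 and 125 with Dnmt1, and Serpinb9b 242 and 224 against 281 and 288. In Tet3 m/m cells only 5 of the 8 had reads to test, and none of the 5 passed by limma, edgeR or DESeq2, 2 had an unadjusted p under 0.05, and 2.46% of all genes passed. Serpinb9b read 34.7 and 44.3 against 49.2 and 55.4 with Dnmt1 (log2 difference of 0.40, SE 0.16, adjusted p = 0.133 by limma), and Serpinb1a read 133 and 125 against 78.7 and 83.2 (-0.66, SE 0.31, adjusted p = 0.204). Serpinb9e, Serpinb9f and Serpinb9g were at 0 in all 4 Tet3 m/m libraries, and no fold between vectors can be given. Against the Tet3+/+ cells with Dnmt1 they were at least 109-fold, 35.4-fold and 35.1-fold lower. Outside the members, Serpinb7 rose with Dnmt1 in Tet3 m/m cells from 0 in both libraries to 3.97 ± 0.71 (adjusted p = 0.0341 by limma, n = 2 each), a call that edgeR and DESeq2 did not make. The test of a difference between genotypes in the effect of Dnmt1 was passed by none of these 5 serpins for Tet3 m/m against Tet3+/+ cells, and by none of the 8 for Tet3-/- against Tet3+/+ cells, by limma, edgeR or DESeq2. The unadjusted p was under 0.05 for 0 of the former and 1 of the latter, while 0.604% and 3.99% of all genes passed.

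With the Dnmt1 vector Serpinb9, Serpinb9b and Serpinb6b kept the order of genotypes seen with the empty vector. Serpinb9 read 138 and 109 in Tet3+/+ cells, 23.2 and 43.3 in those of the m/m genotype and 595 and 608 in Tet3-/- cells, 3.71-fold lower and 4.87-fold higher than wild type. Serpinb9b was 5.44-fold lower and 4.10-fold higher, and Serpinb6b 2.06-fold lower and 2.23-fold higher. Serpinb6a and Serpinb1a were 1.44-fold and 1.74-fold higher in Tet3 m/m cells. Of the 8 serpins 6 had their Tet3 m/m libraries wholly below and 2 wholly above the Tet3+/+ libraries, as did 35.2% and 37.1% of all genes. In Tet3-/- cells 1, Serpinb9g, was wholly below (38.1% of all genes) and 4, Serpinb9, Serpinb9b, Serpinb6a and Serpinb6b, wholly above (37.1%).

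**Figure D3:**
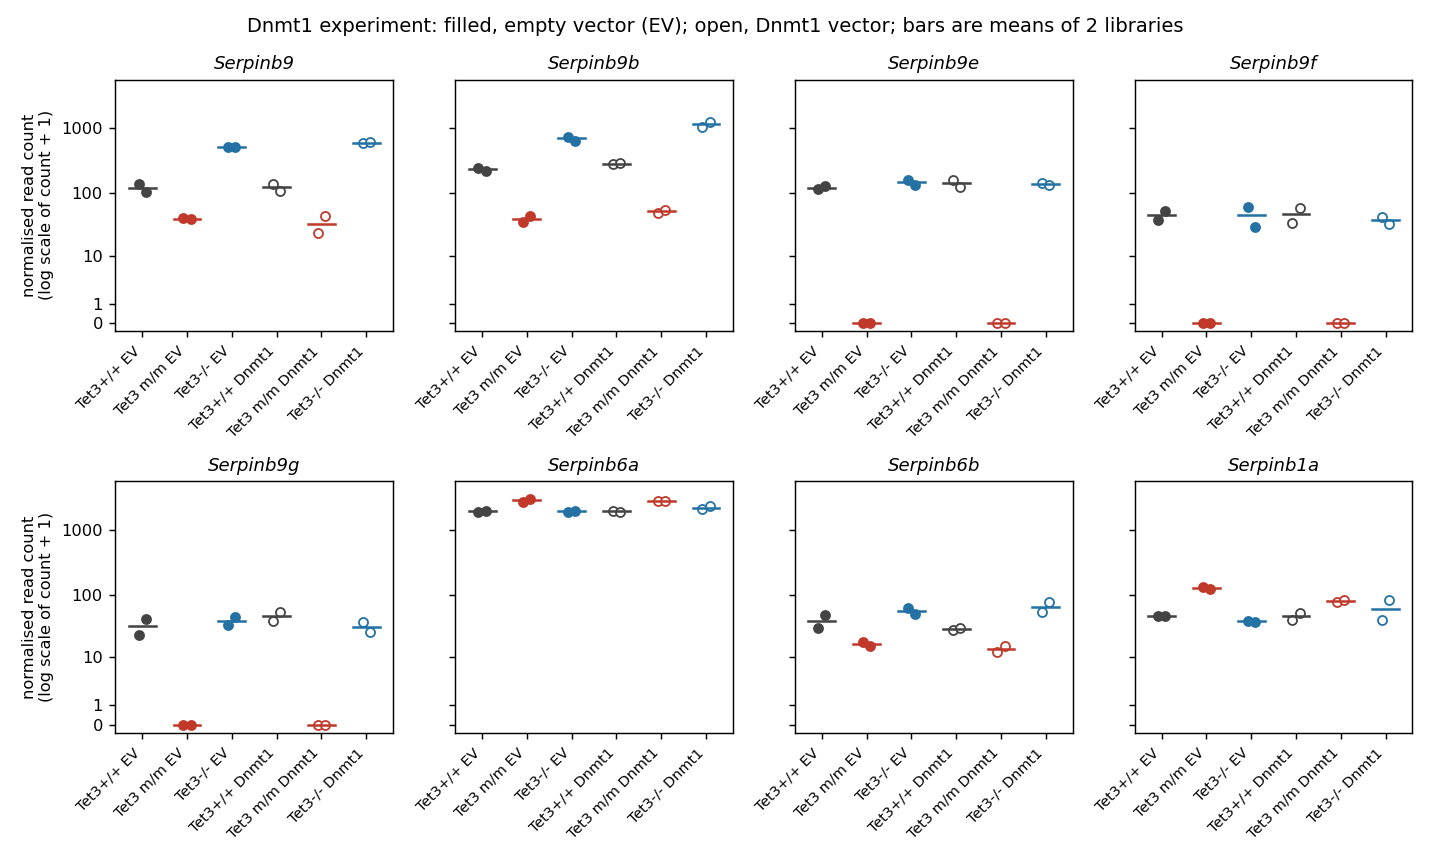
Normalised read counts of the 8 serpins in the Dnmt1 experiment, on a log scale of count + 1, with filled points for the empty vector, open points for Dnmt1, 1 point per library and a bar at each mean (n = 2 per group). Serpinb9e, Serpinb9f and Serpinb9g are at 0 in all 4 Tet3 m/m libraries, with either vector, and Serpinb9b in Tet3-/- cells moves from 651 and 749 to 1056 and 1278.

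In the third experiment, whose cells were collected later, Serpinb9e, Serpinb9f and Serpinb9g were low but not silent in Tet3 m/m cells, and all values are of single libraries. With the empty vector Serpinb9e read 101 for Tet3+/+, 22.3 for Tet3 m/m and 1490 for Tet3-/- cells, 4.54-fold lower and 14.7-fold higher than wild type, from 95, 24 and 1487 reads. Serpinb9f read 39.5, 14.9 and 405, and Serpinb9g read 25.6, 7.45 and 388. The Tet3 m/m library was the lowest of the 3 for each of these copies, as in the other experiments, and the Tet3-/- library was 10.2-fold to 15.1-fold above wild type, which no Tet3-/- library of the other experiments was. The rest of the block did not follow as a whole. Serpinb9c read 7.48 for Tet3+/+ and 27.9 for Tet3 m/m cells with the empty vector, 3.73-fold higher in the latter, and 20.7 and 7.51 with Tet3-CD, 2.76-fold lower. Serpinb9d read 12.8 and 5.59 with the empty vector and 23.7 and 11.3 with Tet3-CD. Both were high in Tet3-/- cells with the empty vector, at 135 and 128. Serpinb6c, which rose in Tet3 m/m cells in the other experiments, was lower there in this one. It read 261 for Tet3+/+ and 111 for Tet3 m/m cells with the empty vector, and 225 and 113 with Tet3-CD. The time of collection and the experiment cannot be told apart.

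The other serpins were ordered differently here. Serpinb9 read 203, 490 and 516 in Tet3+/+, Tet3 m/m and Tet3-/- cells, and Serpinb9b read 363, 1089 and 2565. Both were higher in Tet3 m/m than in Tet3+/+ cells, 2.41-fold and 3.00-fold, the reverse of the Dnmt1 experiment. Serpinb6b read 57.7, 83.8 and 187, Serpinb1a 25.6, 81.9 and 24.1, and Serpinb6a 2152, 1871 and 1919. Low Serpinb9e with Serpinb9 and Serpinb9b at or above the wild-type level was thus found on day 3 for Serpinb9 and in this experiment for both.

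The order Tet3+/+, Tet3 m/m, Tet3-/- gave Tet3 levels of 4755, 1850 and 2070 for the empty vector, and of 5441, 5232 and 2759 once Tet3-CD was supplied. With Tet3-CD the Tet3 m/m library held 30.1 for Serpinb9e, 13.2 for Serpinb9f and 5.64 for Serpinb9g, against 22.3, 14.9 and 7.45 without, and from 32 and 24 reads for Serpinb9e the ratio was 1.35. The Tet3+/+ library with Tet3-CD held 130, 45.4 and 25.7 for the same 3 genes, so that the Tet3 m/m levels stayed below the wild-type ones with Tet3-CD. The Tet3-/- library held 1141 for Serpinb9e with Tet3-CD against 1490, 785 for Serpinb9 against 516 and 2761 for Serpinb9b against 2565. Without replicates none of these differences has an error.

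**Figure D4:**
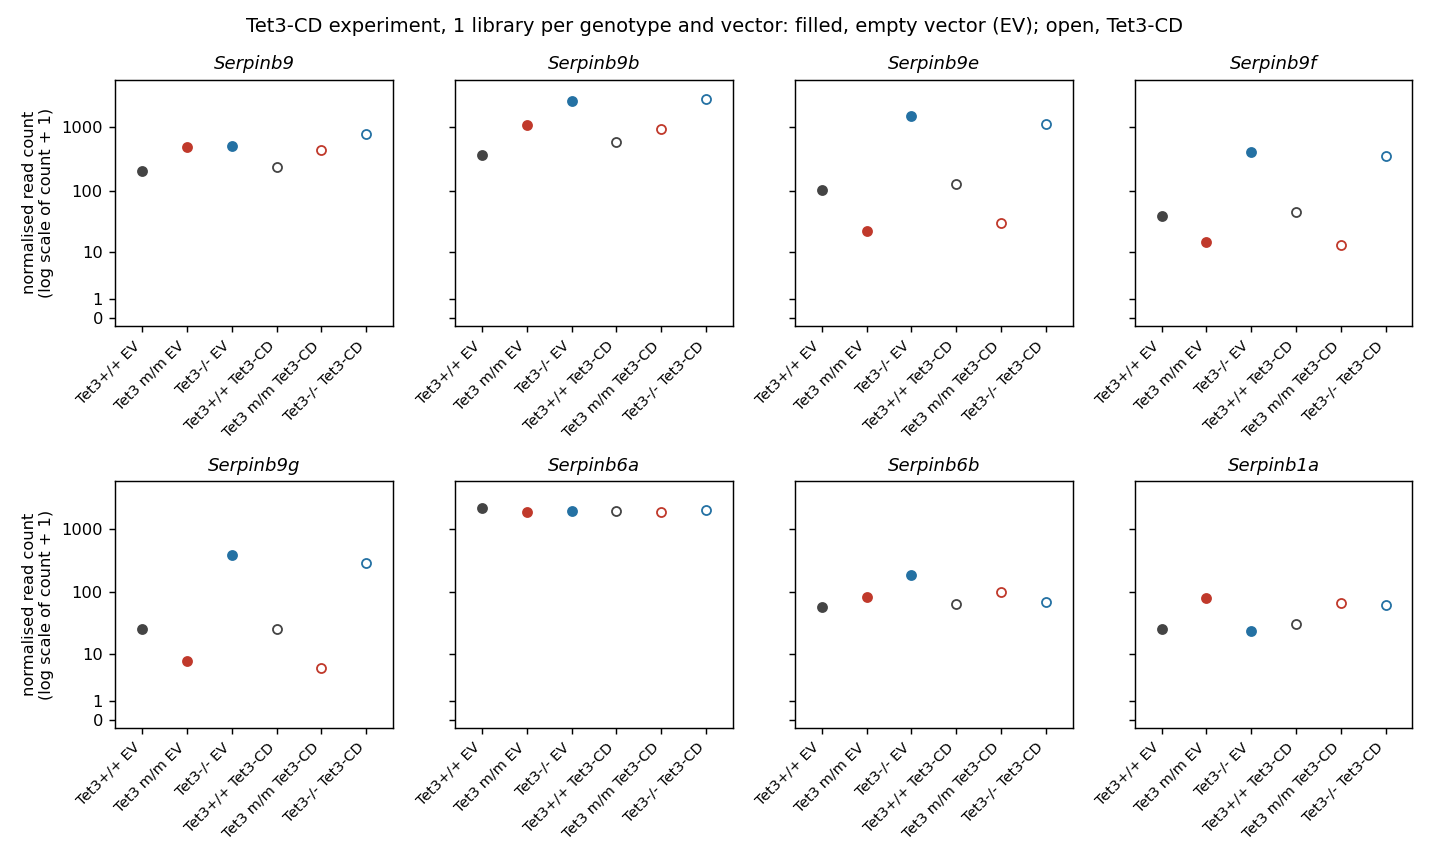
Normalised read counts of the 8 serpins in the Tet3-CD experiment, on a log scale of count + 1, with 1 library per genotype and vector, filled for the empty vector and open for Tet3-CD. Serpinb9e is at 22.3 and 30.1 in the 2 Tet3 m/m libraries, 101 and 130 in Tet3+/+ and 1490 and 1141 in Tet3-/-.

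The relatives of Ceacam9 were not all low in Tet3 m/m cells. Psg29, a pregnancy-specific glycoprotein near it on chromosome 7, read 42.4, 35.5 and 51.4 in Tet3+/+, 0 in all 3 Tet3 m/m and 4.24 and 63.8 in Tet3-/- libraries on day 3. It was at least 45.2-fold lower in Tet3 m/m cells (adjusted p = 0.00253 by limma), and its Tet3-/- libraries were split in the same way as those of Ceacam9. Ceacam1, an adhesion molecule of epithelia, rose from 146 ± 8.03 to 381 ± 33.0 (log2 difference of 1.37, adjusted p = 0.00163 by limma, n = 3 each), and Ceacam20 rose from 5.07 to 49.3 (adjusted p = 0.0411 by limma). Ceacam2 and Ceacam19 did not pass the test. Of the 5 genes 2 rose and 1 fell in Tet3 m/m cells, where 10.2% of all genes passed, with a median of 1.37. In Tet3-/- cells, where 0.642% of all genes passed by limma, none of the 5 passed by limma, edgeR or DESeq2, with 1 at an unadjusted p under 0.05. With the empty vector of the Dnmt1 experiment Ceacam1 rose again in Tet3 m/m cells, by 1.71, as 1 of the 4 genes measured, and in Tet3-/- cells Ceacam1, Ceacam10, Ceacam19 and Ceacam20 all fell, with log2 differences of -3.12 to -1.17, where 21.2% of all genes passed in Tet3 m/m and 24.9% in Tet3-/- cells.

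Few of the proteases that these serpins act on were measured. Of 19 granzymes, leukocyte proteases, cathepsins and caspases, 5 were in each table, and granzyme B was not among them. On day 3 Gzmm, granzyme M, rose by 1.12 in Tet3 m/m cells (adjusted p = 0.0315 by limma), and the other 4 did not pass, where 10.2% of all genes passed. In Tet3-/- cells none passed by limma, edgeR or DESeq2, and 1 had an unadjusted p under 0.05, where 0.642% of all genes passed by limma. With the empty vector of the Dnmt1 experiment Prtn3, a neutrophil protease, fell by 0.86 in Tet3 m/m cells. Ctsl, a lysosomal cathepsin, rose there by 0.85, where 21.2% of all genes passed. In Tet3-/- cells of that experiment none passed by limma, edgeR or DESeq2, against 24.9% of all genes by limma, and 3 had an unadjusted p under 0.05.

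Between Tet3 m/m and Tet3+/+ cells trophoblast markers moved with the silent genes in 2 of the 3 experiments. On day 3, 5 of the 10 measured markers fell and 1, Eomes, rose in Tet3 m/m cells by limma, where 10.2% of all genes passed. Their summed level was 12126 to 13401 for Tet3+/+, 6190 to 9706 for Tet3 m/m and 13235 to 15070 for Tet3-/- libraries. The Tet3 m/m library with the lowest sum, at 6190, was the only one of its genotype with Serpinb9e reads. Tpbpa, made by placental spongiotrophoblast, was at 34.7 to 41.5, at 0 and at 6.36 to 22.8, while Prl3d1 and Prl2c2, which mark giant cells, were not among the genes of the table. In bulk RNA, fewer cells of a type and less RNA per cell cannot be told apart. With the empty vector of the Dnmt1 experiment 6 of 9 markers fell and 1 rose in Tet3 m/m cells, where 21.2% of all genes passed. The sums were 9977 to 10709, 5737 to 5872 and 16287 to 16419 in Tet3+/+, Tet3 m/m and Tet3-/- cells. In these Tet3-/- cells 2 of the 9 markers rose and 2 fell, where 24.9% of all genes passed. Serpinb9e differed less than the sum there, with means of 148 in Tet3-/- and 122 in Tet3+/+ cells.

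In the Tet3-CD experiment the sum went the other way from Serpinb9e. It was 11878 in Tet3 m/m against 7184 in Tet3+/+ cells with the empty vector, while Serpinb9e was at 22.3 against 101. In Tet3-/- cells of that experiment both were high, at 28660 and 1490. Markers of further cell types also moved in Tet3 m/m cells of the Dnmt1 experiment. Pluripotency markers summed to 81690 to 84118 against 29238 to 29835 in Tet3+/+ cells, primitive endoderm markers to 290654 to 321340 against 137285 to 141599, and fibroblast feeder markers to 2884 to 3145 against 17673 to 19424. Where Serpinb9 and Serpinb9b were higher, in Tet3-/- cells of that experiment with the empty vector, 24.9% of all genes passed the test. There 9 of 10 pluripotency markers fell (median log2 difference of -2.43, sums of 7926 to 8412). Of 10 primitive endoderm markers 8 fell and 1 rose (median of -1.28, sums of 55190 to 55716), and of 7 feeder markers 3 rose and 1 fell (median of 1.21, sums of 36285 to 36286). The part of cell make-up in the serpin levels was not tested.

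**Figure D5:**
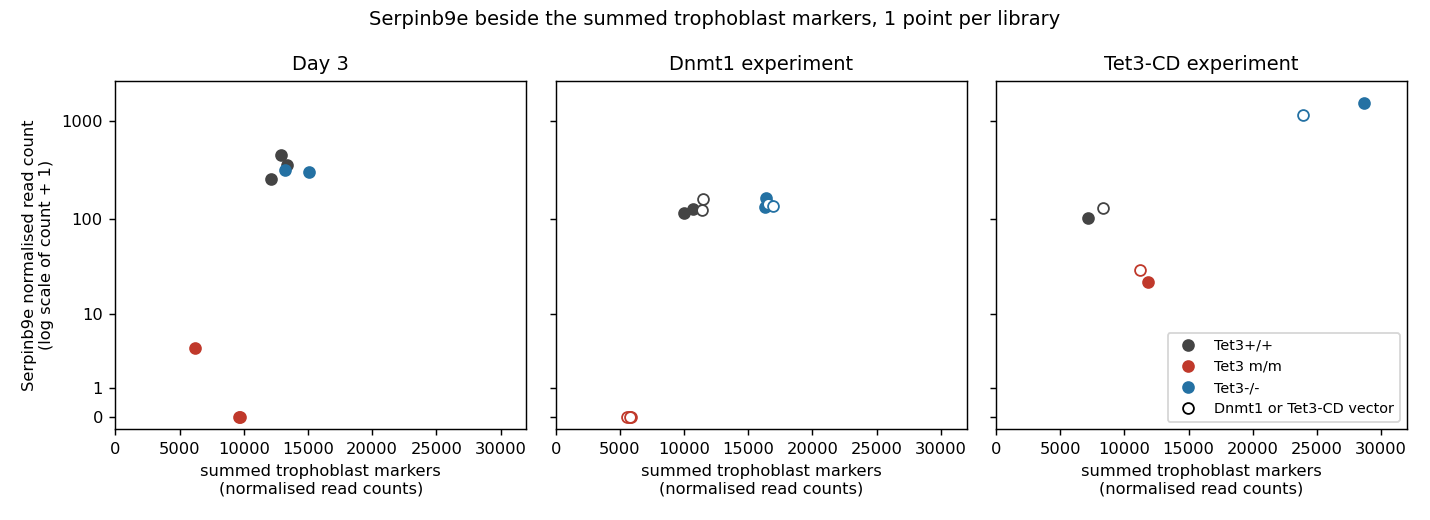
Summed normalised counts of the measured trophoblast markers (x axis) against Serpinb9e (log scale of count + 1, y axis), with 1 point per library, for the day 3, Dnmt1 and Tet3-CD experiments. Tet3 m/m libraries have the lowest sums in the first 2 panels, and in the third, at 11181 and 11878, they lie above the Tet3+/+ libraries at 7184 and 8314.

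The genes most like Serpinb9e were sought over the 8 day 3 and the 12 Dnmt1 libraries by the lower of the 2 Pearson correlations of log2 values. They were Suclg1 (0.986), Lancl2 (0.985), Cdkn1c (0.985), Cbx3 (0.985) and Arf5 (0.982), and 4 of these 5 lie on chromosome 6, which held 4.47% of the genes tested. Suclg1 read 3072, 2791 and 3086 for Tet3+/+, 1358, 1470 and 1715 for Tet3 m/m and 2575 and 3075 for Tet3-/- libraries on day 3, the pattern of Serpinb9e at a far smaller span. For Ceacam9, over the 8 day 3 libraries alone, they were Psg29 (0.993), Ssbp1 (0.991), Bola3 (0.985), Hp1bp3 (0.982) and Hoxaas2 (0.978), of which 3 lie on chromosome 6 and Psg29 on chromosome 7. The libraries fall into few genotypes, so these values mainly describe a division by genotype. By Spearman correlation none of the 5 genes was the same for either. For Ceacam9 the first 12 genes by Spearman were tied at 0.976, so its first 5 were an arbitrary pick and this comparison cannot judge its Pearson list. The median gene of chromosome 6 was itself lower in Tet3 m/m libraries, by a log2 difference from Tet3+/+ of -0.31 to -0.18 on day 3 and -0.26 with the empty vector. Chromosome 6 did not stand alone, since the median gene of chromosome 8 was at -0.38 to -0.30 in Tet3 m/m libraries on day 3 and at -0.44 with the empty vector. It also varied on day 3 among Tet3+/+ libraries, from -0.12 to 0.20, and Tet3-/- libraries, from -0.32 to 0.17. That of chromosome 13, which holds the serpins, was at 0.04 to 0.13 and 0.07 to 0.09, and that of chromosome 7, with Ceacam9, at -0.03 to 0.04 on day 3.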

How the data were processed

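RNA of 26 cultures was sequenced: 8 untransfected libraries of day 3, 12 with Dnmt1 or its empty vector and 6 with Tet3-CD or its empty vector. For day 3 the study states that total RNA was extracted and mRNA sequenced. The authors trimmed reads with Trim Galore (0.6.7), aligned them with STAR (2.7.9a), counted them with featureCounts and deposited DESeq2-normalised counts, a signal that is not on a whole-read scale. Methylation, hydroxymethylation and chromatin data of the series were not analysed here. Reads were recovered from the deposited values, since 100% of them were whole multiples of 1 read (within 0.01). limma (3.58.1, R 4.3.3, empirical Bayes with trend) was fitted to log2(value + 1) of all genes with a mean of at least 10, on all groups of an experiment, and a gene was called where it changed more than 1.5-fold and its adjusted p (Benjamini-Hochberg) was under 0.05. Fold changes on this scale understate the change of low genes, so ratios of group means are given, with a floor of 3 reads over a group at 0. On day 3 the recovered counts of Ceacam9, Psg29, Serpinb9, Serpinb6b, Serpinb1a, Serpinb9c and Tpbpa were even in every library. Those of Serpinb9e, Serpinb9f and Serpinb9g were odd in some libraries but even in all Tet3 m/m libraries. Both mates of a read pair may thus have been counted, which was not tested. Every bound that rests on the floor would then be too high. The reads given here, also those used by edgeR and DESeq2, would stand for fewer read pairs. edgeR (4.0.16) and DESeq2 (1.42.0) on the recovered reads were alternatives. Over all genes edgeR called 1821 and limma 1836 for Tet3 m/m against Tet3+/+ on day 3, and edgeR called 467 and limma 444 for Dnmt1 against empty vector in Tet3 m/m. On simulated data limma recovered 85 of 100 genes changed 2-fold and 98 of 99 changed 4-fold for Tet3 m/m against Tet3+/+ on day 3 (17776 genes run), and 79 of 98 and 92 of 99 for Dnmt1 against empty vector in Tet3 m/m (17929 genes run). The simulated spread was set by a formula on the mean of each gene, was not fitted to these data and held no difference between clones. Recovery in the real data may therefore be lower.

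The genes and lists were chosen with earlier results of these data known, and the genes named are the members, the other Serpinb, Ceacam and Psg genes, flanking genes and listed markers that passed the test, and the 5 genes most like Serpinb9e and Ceacam9. A listed gene is not reported here, and its list is counted without it. Genotype contrasts share their Tet3+/+ libraries. Replicates are described as separate clones on day 3, and where nothing says so p-values measure only the spread between the libraries given. The 2 Tet3+/+ empty-vector libraries of the Dnmt1 experiment carry no replicate number. Promoters and transcripts are from RefSeq and GENCODE tables on GRCm38.p6, whereas the study states mm39 for RNA-seq, and names, gene order, sequences and the GRCm38.p6 positions of the promoters alone were taken from them.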

Additional observations from a re-analysis of the deposited data

Results flagged for a closer look

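For 4 of the member serpins the difference between Tet3 m/m and Tet3+/+ cells with the empty vector changed direction between experiments. It went one way in every library of the Dnmt1 experiment and the other way in the single pair of libraries of the Tet3-CD experiment. The Tet3 m/m to Tet3+/+ ratio of Serpinb9 was 0.327 in the former and 2.41 in the latter. That of Serpinb9b was 0.170 and 3.00, that of Serpinb6b 0.433 and 1.45, and that of Serpinb6a 1.496 and 0.870. Because the Tet3-CD experiment has 1 library per group, the difference between the experiments was not tested, and its cells were also collected later. Serpinb9e, Serpinb9f and Serpinb9g were lower in Tet3 m/m cells in both. The summed level of Ddx3y, Uty and Eif2s3y in the Tet3 m/m libraries with the empty vector was 208 and 233 in the former experiment and 14.9 in the latter.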

How the results depend on the processing

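Of 564 alternative values of the members' genotype differences 526 stayed within 1 SD and 38 moved. No difference that passed the call in the main fit changed sign. Differences that did not pass it could change sign without 1 library. On day 3 Serpinb9 in Tet3 m/m cells then ranged from -0.64 to 0.32, and Ceacam9 in Tet3-/- cells from -3.72 to 0.52. Serpinb9e on day 3 in Tet3 m/m cells ranged from -9.96 to -5.84 on the log2 scale over the settings tried, so its fitted size is no bound. For the vector, 427 of 447 values kept their direction and call. The count of members called in Tet3 m/m cells went from 0 to 1 (Serpinb1a) when only the compared groups were fitted, and that in Tet3-/- cells from 1 to 2 with no fold threshold and to between 0 and 2 without 1 library. Around the Serpinb cluster, calls on day 3 were 2 in Tet3 m/m cells under DESeq2, a pseudocount of 5 or the replicate block (1 to 2 without 1 library), and 2 in Tet3-/- cells under DESeq2 or only the compared groups (0 to 2 without 1 library). With no fold threshold the empty-vector counts were 11 and 13 there, and 12 and 11 around Ceacam9. The latter count in Tet3 m/m cells was 2 under DESeq2 or with a mean of at least 50, and 2 to 4 without 1 library. Uncalled vector differences near 0 changed sign: in Tet3+/+ cells Serpinb9f was 0.0304 under edgeR and 0.0309 under DESeq2 and Serpinb1a 0.0022 under DESeq2. Without 1 library Serpinb9 ranged from -0.17 to 0.23, Serpinb9f from -0.40 to 0.38, Serpinb6a from -0.0086 to 0.021 and Serpinb1a from -0.19 to 0.17 in Tet3+/+ cells. In Tet3 m/m cells Serpinb9 ranged from -0.75 to 0.13 and Serpinb6a from -0.12 to 0.0235, and in Tet3-/- cells Serpinb9e from -0.22 to 0.0634, Serpinb9f from -0.67 to 0.32 and Serpinb6b from -0.0759 to 0.44. The cause was not tested. Replicate numbers did not pair the samples (correlations of deviations from -0.098 to 0.082). With the replicate block Serpinb9b in Tet3-/- cells stayed at 0.73 (adjusted p = 0.00775 by limma) and no other call on a member changed. No paired analysis was possible because the Tet3+/+ empty-vector libraries carry no number, for Tet3+/+ cells and the differences between genotypes. On day 3 at most 16 reads over the group stand behind Serpinb9e, Serpinb9f and Serpinb9g in Tet3 m/m cells, which limits their ratios. Over all genes, the calls for Tet3-/- against Tet3+/+ on day 3 numbered 115 with limma, 86 with edgeR and 916 with DESeq2, and the cause was not tested; in the other contrasts the counts of the 3 tools were within 1.5 times of the limma count.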

Other observations

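On day 3, 5 of 17948 genes were listed at 0 in all 3 Tet3 m/m libraries. They were Ceacam9, Psg29, Tpbpa, Ctsj and Ppp1r17, with Tet3+/+ means of 69.5, 43.1, 37.2, 59.3 and 18.2 normalised counts. The first 4 are known from placenta, where Ctsj encodes a cathepsin. These genes were singled out after their values were seen. In the Tet3-CD experiment 13 of 17705 genes were at 0 in both Tet3 m/m libraries, none of them a member, and they included the Y-linked gene Uty and the neural genes Myt1, Dbx1 and Otp.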
